A study of Mus musculus with 20 samples.

Results

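The genes for the subunits of NF-κB and a set of its feedback genes were followed in mouse bone marrow-derived macrophages (BMDM). They comprised 10 of the 14456 genes listed by Ensembl identifier, chosen by symbol through GENCODE M21: the Rel family subunits Nfkb1, Nfkb2, Rela, Relb and Rel, and the feedback genes Nfkbia, Nfkbie, Tnfaip3, Tnfaip2 and Birc3. Of the feedback genes, Nfkbia, Nfkbie and Tnfaip3 encode inhibitors, while Tnfaip2 and Birc3 are grouped with them without being taken as inhibitors. All 10 passed the filter on low values in every comparison. Long RNA was sequenced from 20 libraries in 5 groups of 4. In a first experiment, BMDM were kept for 24 h in medium with 25 mM glucose (high glucose) or with 5.5 mM glucose and 19.5 mM mannitol, a sugar alcohol that evens out the osmotic pressure (normal glucose). In a second experiment, naive BMDM received PBS, exosomes shed by BMDM in normal glucose (BMDM–NG-exo) or exosomes shed by BMDM in high glucose (BMDM–HG-exo), at 2000000000 particles per ml for 24 h. The mice were male C57BL/6J of 8 to 12 weeks, and the marrow was grown for 6 days with 25 ng/ml of M-CSF, so every group consists of cells differentiated in culture and no stimulus such as lipopolysaccharide was given. The exosome libraries carry 4 dates, each shared by 1 library of every group, and the numbers of the glucose libraries are not said to mark a shared animal or day. The labels do not say which libraries came from separate animals, so the p-values measure the spread between these libraries. The paper states that the samples of the exosome experiment came from separate exosome preparations. Below, the word preparation stands for the type of exosome, shed in normal or in high glucose, and not for a single batch.

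NF-κB is a dimer of Rel family proteins, of which Rela, Relb and Rel carry the transactivation domain, while Nfkb1 and Nfkb2 make precursors that are cut to the DNA-binding partners p50 and p52. Inhibitors of the IκB family hold the dimer in the cytoplasm until a kinase complex downstream of Toll-like, interleukin-1 and tumour necrosis factor receptors marks them for destruction. Among the first genes that free NF-κB switches on in macrophages are its own inhibitors, the ubiquitin-editing enzyme A20 and several subunits, which makes the RNA level of these genes a common readout of the pathway.

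The 8 members present in the RefSeq promoter table (GRCm38.p6; Nfkb1 and Relb have no entry) were searched for the κB consensus, the decamer bound by NF-κB, on both strands of the 250 bases before each listed start, with overlapping matches counted once. A match was present for 5 of the 8, namely Nfkb2, Rel, Nfkbia, Nfkbie and Tnfaip3, and absent for Rela, Tnfaip2 and Birc3. The same search found a match in 3.9% of 32851 windows and for 4.46% of 27025 genes. The windows of both IκB genes, which hold a match and overlap no annotated exon, are shown whole. Each match of the other members is shown with its flanks, and their windows with a match overlap annotated exons. Capitals mark the match, and each sequence reads 5′ to 3′ on the strand of the gene.
Nfkbia, chr12:55492648-55492897, minus strand: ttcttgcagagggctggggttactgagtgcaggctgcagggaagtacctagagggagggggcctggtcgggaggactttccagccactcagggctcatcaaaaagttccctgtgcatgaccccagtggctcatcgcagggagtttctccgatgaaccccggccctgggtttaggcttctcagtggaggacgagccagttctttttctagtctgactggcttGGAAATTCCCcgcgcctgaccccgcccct
Nfkbie, chr17:45555450-45555699, plus strand: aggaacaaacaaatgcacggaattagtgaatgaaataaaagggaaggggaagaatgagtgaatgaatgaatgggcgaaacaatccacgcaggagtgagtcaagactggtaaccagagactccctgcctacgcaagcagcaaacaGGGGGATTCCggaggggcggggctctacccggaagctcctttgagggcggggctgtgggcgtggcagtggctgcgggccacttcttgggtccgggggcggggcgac
Nfkb2, chr19:46304689-46304717, plus strand: gatcgtcacGGGAATTCCCCccctcgggg
Nfkb2, chr19:46304716-46304736, plus strand: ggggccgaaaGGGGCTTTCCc
Nfkb2, chr19:46305449-46305478, plus strand: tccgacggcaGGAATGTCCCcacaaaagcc
Nfkb2, chr19:46305695-46305724, plus strand: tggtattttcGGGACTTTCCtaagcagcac
Rel, chr11:23771042-23771070, minus strand: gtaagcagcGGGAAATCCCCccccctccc
Tnfaip3, chr10:19015516-19015545, minus strand: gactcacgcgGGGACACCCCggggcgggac
Tnfaip3, chr10:19015411-19015432, minus strand: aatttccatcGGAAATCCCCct
The Nfkbia match lies 29 to 20 bases before the start and that of Nfkbie 106 to 97 bases before it. Tnfaip3 has 2 matches before its outer start and none before the inner one, and Nfkb2 has 4 over its 3 windows. These are matches of letters, and whether they are occupied in these cells was not measured.

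**Figure D1:**
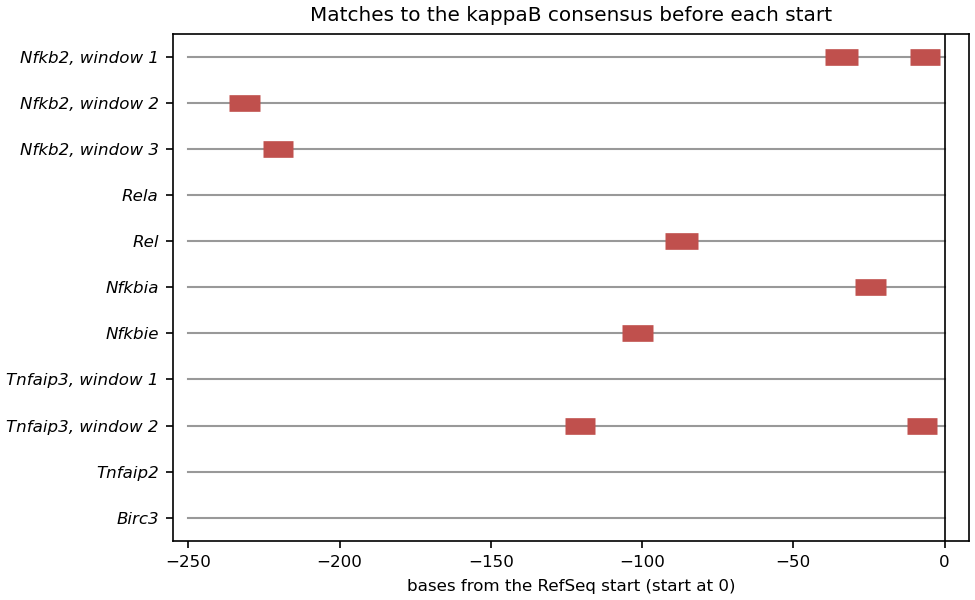
Matches to the κB consensus (red) in the 250 bases before each RefSeq start of the 8 members in the promoter table. The x axis gives bases from the start, which is at 0, and members with several starts have 1 line per window. Rela, Tnfaip2 and Birc3 show no match, and Nfkbia, the outer Tnfaip3 start and the first Nfkb2 window have a match within 39 bases of the start.

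Levels are given as normalized counts, that is, reads per gene scaled by the authors with 1 factor per library. The reads behind them summed to between 34016445 and 56310712 per library (median 43311931), and a member had between 729 and 19846 reads in a library. The coefficient of variation of a member within a group had a median of 4.54% and ran from 0.927% (Birc3 with BMDM–HG-exo) to 15.3% (Relb with BMDM–HG-exo). The macrophage markers Adgre1, Csf1r, Cd68, Mertk, Fcgr1, Itgam and Lyz2 were all listed, and none of the 17 markers of T cells, dendritic cells, mast cells and erythroid cells was, so those were not analysed here. Of neutrophil, B cell and fibroblast markers 4 of 7, 1 of 4 and 4 of 5 were listed, with sums of at most 334, 68 and 372 normalized counts in a library. Since bulk RNA was measured, fewer cells that express a gene and less RNA of it per cell cannot be told apart.

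In cells kept in high glucose, the 5 feedback genes passed the threshold as higher, and of the 5 subunits Nfkb1 alone did. Rela and Relb had log2 fold changes of 0.12 and 0.13, close to the 0.13 of Nfkb1. Of the 10 members, 6 were called higher than in normal glucose and none lower, where a call means an adjusted p under 0.05: Nfkbia, Tnfaip2, Nfkbie, Tnfaip3, Nfkb1 and Birc3. Over all 14425 genes tested 13.3% were called, 7.74% as higher, and among the 5951 genes at least as abundant as the least abundant member 15.5% were called higher. The median log2 fold change was 0.31 for the 5 feedback genes and 0.12 for the 5 subunits, against -0.003 over all genes. For the same 6 members each high glucose library lay above each normal glucose library, which held for 9.18% of all genes.

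Nfkbia encodes IκBα, the inhibitor that is resynthesised first after NF-κB is freed. Its normalized counts were 2360, 2446, 2204 and 2291 in the normal glucose libraries, and 3055, 3063, 3152 and 3036 in those of high glucose. The high glucose libraries were tightly grouped and the gap to the normal glucose libraries was wider than the range within either group. The log2 fold change was 0.40 ± 0.05 (SE, n = 4 libraries per group), or 1.32-fold (adjusted p = 9.9e-08 with limma). Nfkbie, which encodes the related inhibitor IκBε, had 906, 912, 908 and 782 counts at normal glucose and 1073, 1068, 1103 and 1157 at high glucose. Replicate 6 of normal glucose stood below the other 3, and the groups were apart with or without it. Nfkbie rose 1.26-fold (log2 0.33 ± 0.07, adjusted p = 0.00117).

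Tnfaip3 encodes A20, which edits ubiquitin chains and shuts the pathway upstream of the IκB kinases. It had 781, 859, 904 and 863 counts at normal glucose and 989, 1009, 983 and 1036 at high glucose, without overlap, and rose 1.18-fold (log2 0.24 ± 0.07, adjusted p = 0.0198). Tnfaip2, a tumour necrosis factor-induced gene linked to membrane protrusions, was the most abundant member, with 12534, 11208, 12693 and 11685 counts at normal glucose and 14728, 14815, 15127 and 15000 at high glucose. No library of one group came near the other, and the rise was 1.24-fold (log2 0.31 ± 0.04, adjusted p = 1.05e-07). Birc3 encodes cIAP2, a ubiquitin ligase recruited to tumour necrosis factor receptors. Its counts of 2900, 2796, 3015 and 3018 at normal glucose and 3429, 3135, 3099 and 3297 at high glucose were separated by less than the range within either group, and it rose 1.10-fold (log2 0.14 ± 0.05, adjusted p = 0.0403).

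Of the subunits Nfkb1 alone was called. Its counts were 6365, 6342, 6562 and 6045 at normal glucose and 6867, 7072, 6815 and 7031 at high glucose, a rise of 1.10-fold (log2 0.13 ± 0.04, adjusted p = 0.0156). A listed gene model of unknown status, Gm43430, lies within Nfkb1 on the same strand with a mean of 187.6 normalized counts, so a small part of the reads could belong to either. Rela, the subunit of the common p65–p50 dimer, had 3254 to 3824 counts at normal glucose and 3800 to 4028 at high glucose, ranges that overlap, with a log2 fold change of 0.12 (95% interval 0.02 to 0.22, adjusted p = 0.0951). Relb and Nfkb2, the partners of the alternative pathway, had log2 fold changes of 0.13 (adjusted p = 0.238) and 0.08 (adjusted p = 0.307). Rel, the subunit c-Rel, was the single member with a value below 0, at -0.09 (95% interval -0.18 to 0.01, adjusted p = 0.253). The calls of Nfkbia, Nfkbie and Tnfaip2 held with each of the 8 libraries left out, whereas Nfkb1, Tnfaip3 and Birc3 did not pass without replicate 6 of high glucose (adjusted p = 0.0556, 0.0689 and 0.116). Nfkb1 also did not pass without replicate 6 of normal glucose or replicate 2 of high glucose (0.0626 and 0.0571), Tnfaip3 without replicate 1 of normal glucose (0.0665), and Birc3 without replicate 1, 3 or 5 of normal glucose or replicate 1 of high glucose (0.0515 to 0.156), while Rela passed without replicate 1 of normal glucose (0.0411). When the variance was not allowed to follow the mean level, Nfkb1, Tnfaip3 and Birc3 did not pass (0.116, 0.0541 and 0.159), and with quantile normalization Nfkb1 and Birc3 did not (0.0812 and 0.174).

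**Figure D2:**
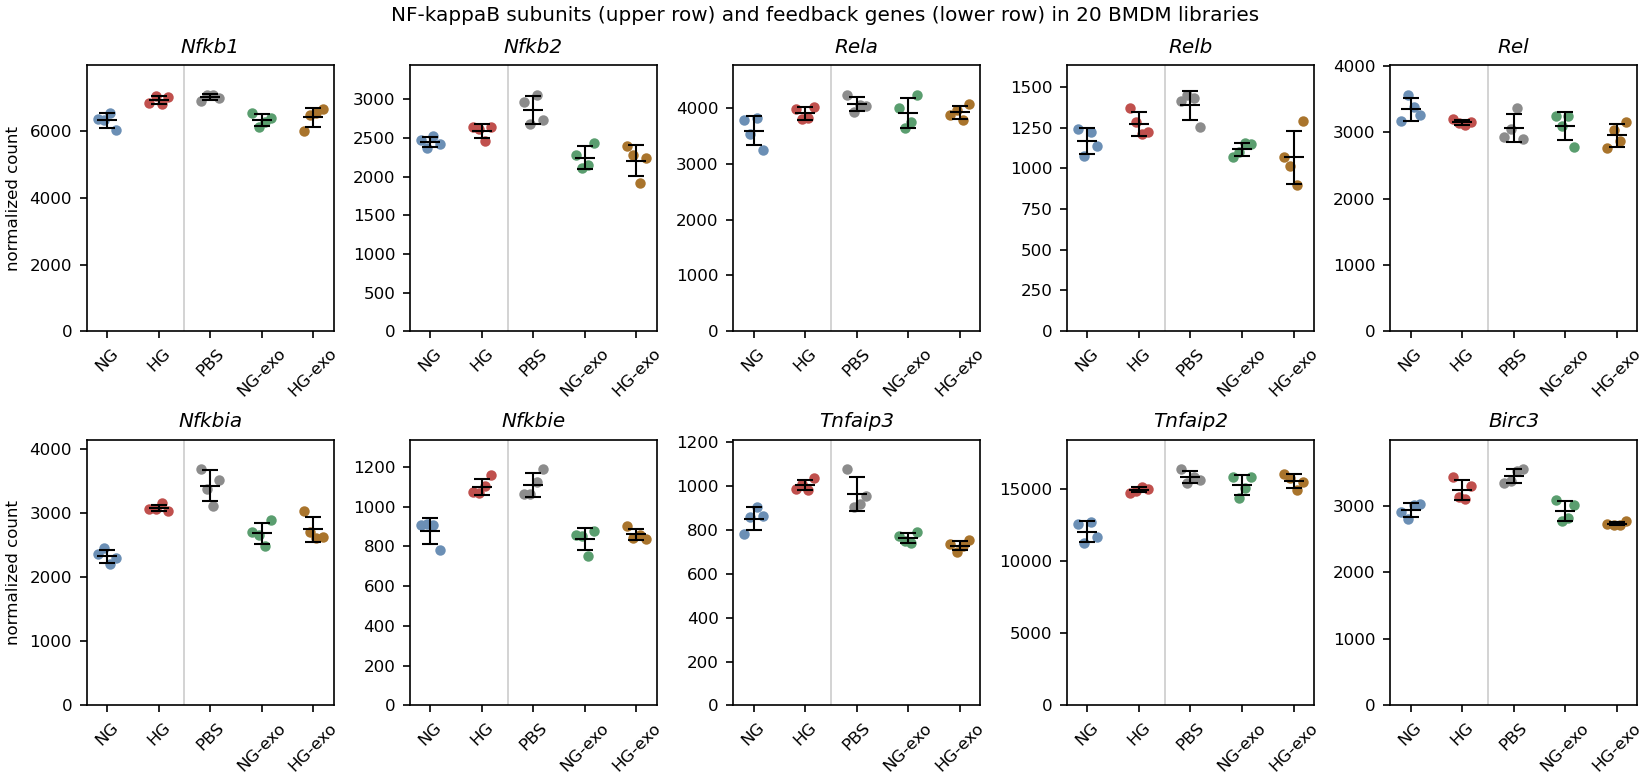
Normalized count of each member in the 20 libraries, with subunits in the upper row and feedback genes in the lower row. Points are libraries, black marks are the mean and SD of 4 libraries, y axes start at 0, and a grey line parts the glucose experiment (NG, HG) from the exosome experiment. Nfkbia, Nfkbie, Tnfaip3 and Birc3 are higher in HG than in NG and lower with either exosome preparation than with PBS, while Rela and Rel were called in none of these comparisons.

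In naive BMDM, members that responded to exosomes were lower than with PBS. With BMDM–HG-exo 6 members were called lower than with PBS and none higher, namely Birc3, Nfkb2, Nfkbia, Tnfaip3, Nfkbie and Relb. With BMDM–NG-exo 6 members were called lower than with PBS, and these were the same 6 genes. Here a call needs an adjusted p under 0.05 together with a log2 fold change of 0.15 or more in size. Of the 14413 genes tested 4.84% were called with BMDM–HG-exo, 3.08% as lower, and 3% were called with BMDM–NG-exo, 2.11% as lower. Among genes at least as abundant as the least abundant member the shares called lower were 5.95% and 4.07%. Both comparisons use the same 4 PBS libraries, so they are given side by side and do not count as separate evidence. The median log2 fold change of the 10 members was -0.33 with BMDM–HG-exo and -0.27 with BMDM–NG-exo, against 0.003 and 0.005 over all genes.

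Both genes of the alternative pathway fell. Nfkb2, the p100 and p52 gene, had 2962, 2678, 3057 and 2726 counts with PBS, 2282, 2105, 2154 and 2431 with BMDM–NG-exo, and 2392, 2278, 1920 and 2234 with BMDM–HG-exo. All 8 exosome libraries lay below the 4 PBS libraries, at 0.786 times the PBS level with BMDM–NG-exo (log2 -0.35 ± 0.06, adjusted p = 0.000315) and 0.771 times with BMDM–HG-exo (log2 -0.37 ± 0.06, adjusted p = 5.74e-05). Relb, its dimer partner, had 1412, 1452, 1432 and 1253 counts with PBS, 1068, 1100, 1154 and 1149 with BMDM–NG-exo, and 1072, 1012, 900 and 1288 with BMDM–HG-exo. Replicate 4 of BMDM–HG-exo, at 1288, lay above the lowest PBS library, so these 2 groups overlap, and the values were -0.31 ± 0.08 with BMDM–NG-exo (adjusted p = 0.0187) and -0.39 ± 0.08 with BMDM–HG-exo (adjusted p = 0.00123) on the log2 scale. The call of Relb with BMDM–NG-exo did not pass without PBS replicate 1, 2 or 3 or BMDM–NG-exo replicate 1 or 2 (adjusted p = 0.0516 to 0.0745). Without the variance trend neither gene passed with BMDM–NG-exo (0.0904 for Nfkb2 and 0.214 for Relb), and Relb did not pass with BMDM–HG-exo (0.0744).

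The other subunits were not called. Nfkb1 had 6922 to 7099 counts with PBS, 6133 to 6546 with BMDM–NG-exo and 6012 to 6669 with BMDM–HG-exo, so that all exosome libraries lay below all PBS libraries. Its adjusted p was 0.0214 and 0.0417, but its log2 fold changes of -0.15 and -0.13 were short of the limit of 0.15, the first of them narrowly. Without PBS replicate 1 or 4 or BMDM–NG-exo replicate 1 or 4 the first passed the limit (-0.15 to -0.16, adjusted p = 0.02 to 0.0479). Rela had log2 fold changes of -0.06 (95% interval -0.15 to 0.04) with BMDM–NG-exo and -0.05 (-0.15 to 0.04) with BMDM–HG-exo. For Rel they were 0.02 (-0.10 to 0.13) and -0.05 (-0.16 to 0.06), and the libraries of all 3 groups overlapped for both genes.

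Both IκB genes and A20 were lower with either preparation. Nfkbia had 3683, 3378, 3113 and 3516 counts with PBS, 2706, 2653, 2485 and 2884 with BMDM–NG-exo, and 3024, 2705, 2615 and 2631 with BMDM–HG-exo. The highest exosome library, at 3024, was still below the lowest PBS library, and the log2 fold changes were -0.35 ± 0.06 with BMDM–NG-exo (adjusted p = 8.5e-05, and 0.0594 without the variance trend) and -0.32 ± 0.06 with BMDM–HG-exo (adjusted p = 0.000167). Nfkbie had 1061, 1065, 1122 and 1189 counts with PBS, 858, 851, 754 and 878 with BMDM–NG-exo, and 901, 844, 859 and 839 with BMDM–HG-exo. Both exosome groups, which overlap each other, were apart from PBS by more than the range within any group, at 0.752 times the PBS level (adjusted p = 0.000392) and 0.777 times (adjusted p = 0.00101). Tnfaip3 had 1078, 906, 917 and 954 counts with PBS, 772, 752, 741 and 791 with BMDM–NG-exo, and 734, 701, 726 and 756 with BMDM–HG-exo. All exosome libraries lay below all PBS libraries, while both exosome groups overlapped, and Tnfaip3 stood at 0.795 times the PBS level with BMDM–NG-exo (adjusted p = 0.00741, and 0.0612 without PBS replicate 1, its highest library) and 0.759 times with BMDM–HG-exo (adjusted p = 0.000594).

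Birc3 had 3335, 3367, 3528 and 3550 counts with PBS, 3084, 2776, 2811 and 3015 with BMDM–NG-exo, and 2726, 2713, 2708 and 2764 with BMDM–HG-exo. All exosome libraries lay below all PBS libraries. The highest BMDM–HG-exo library (2764) was just under the lowest BMDM–NG-exo library (2776), and Birc3 was not called between the preparations (adjusted p = 0.761 with limma). The spread of the BMDM–HG-exo libraries was, relative to the mean, the smallest of any member in any group. Birc3 fell to 0.848 times the PBS level with BMDM–NG-exo (log2 -0.24 ± 0.05, adjusted p = 0.00137) and to 0.792 times with BMDM–HG-exo (log2 -0.34 ± 0.05, adjusted p = 5.9e-06). Tnfaip2 had 15366 to 16352 counts with PBS, 14353 to 15825 with BMDM–NG-exo and 14918 to 16013 with BMDM–HG-exo, which overlap. Its log2 fold changes were -0.05 (95% interval -0.12 to 0.02) and -0.02 (-0.10 to 0.05). Counting members whose exosome libraries all lay below all PBS libraries gives 6 with BMDM–HG-exo, where 5.59% of all genes did so, and 7 with BMDM–NG-exo, where 4.63% did.

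**Figure D3:**
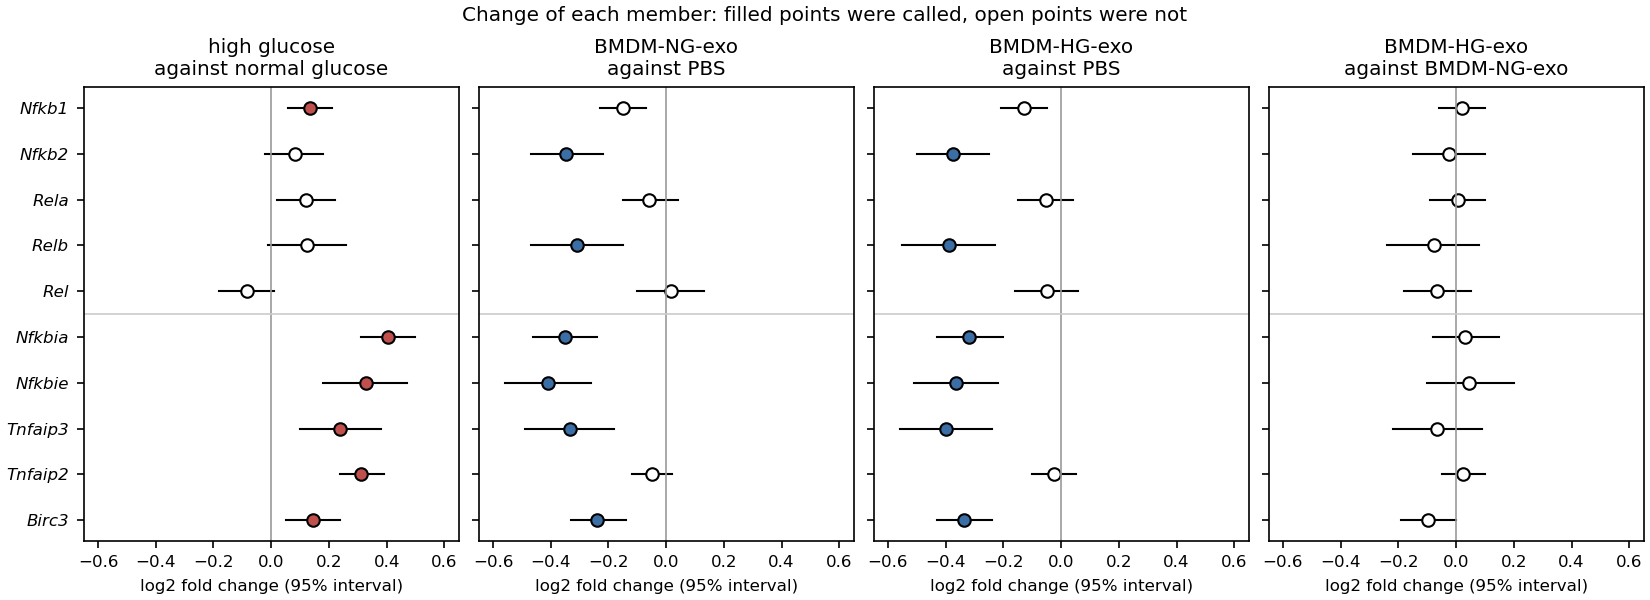
Log2 fold change of each member (point) with its 95% interval (line) in 4 comparisons, subunits above and feedback genes below the grey line. Red points were called higher, blue points called lower and open points not called. In high glucose 6 members are red, against PBS 6 are blue with either preparation, and between the preparations all 10 are open.

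The study set BMDM–HG-exo against PBS and BMDM–NG-exo pooled. When both preparations were compared directly, no member was called by limma, edgeR or DESeq2. DESeq2 gave no adjusted p for Tnfaip3 and so could not call it. Over all genes limma called 0.0139%, and DESeq2 called 22 genes. With limma 1 member, Birc3, had an unadjusted p under 0.05. The log2 fold changes ran from -0.10 (Birc3, 95% interval -0.19 to -0.00, adjusted p = 0.761) to 0.05 (Nfkbie, -0.10 to 0.20). The intervals of Nfkbia (-0.08 to 0.15), Nfkb1 (-0.06 to 0.10), Rela (-0.09 to 0.10) and Tnfaip2 (-0.05 to 0.10) leave room for small differences in either direction. The widest interval was that of Relb, -0.24 to 0.08. With PBS and BMDM–NG-exo pooled as 8 controls, no member was called either, 0.201% of all genes were, and 4 members (Birc3, Tnfaip3, Relb and Nfkb2) had an unadjusted p under 0.05. Birc3 came nearest, at -0.22 ± 0.06 (adjusted p = 0.0896 with limma). For Birc3 DESeq2 gave an adjusted p of 0.0343, edgeR called no member, and without replicate 2 or replicate 3 of BMDM–NG-exo it was 0.0429 and 0.019. In this grouping the controls hold both the PBS libraries and the BMDM–NG-exo libraries, which differ from each other for 6 of the 10 members.

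Whether a member responded differently to glucose in the medium than to exosomes from such cells was tested as the difference of 2 differences, (high glucose minus normal glucose) minus (BMDM–HG-exo minus BMDM–NG-exo), in 1 fit of all 20 libraries. Of the members 3 were called, all with the larger value for glucose, where 4.74% of all genes were called, 3.27% in that direction, and 6.84% in that direction among genes as abundant as the members. The differences were 0.37 ± 0.08 for Nfkbia (adjusted p = 0.00115), 0.29 ± 0.05 for Tnfaip2 (adjusted p = 0.000262) and 0.24 ± 0.07 for Birc3 (adjusted p = 0.0208) on the log2 scale. That of Birc3 did not pass without BMDM–NG-exo replicate 1 or 4, normal glucose replicate 3 or high glucose replicate 1 (adjusted p = 0.0515 to 0.0681), without the variance trend (0.0508) or with quantile normalization (0.0717). Tnfaip3 (0.31, adjusted p = 0.0712) and Nfkbie (0.28, adjusted p = 0.0977) had values of like size that did not pass, although DESeq2 called both (adjusted p = 0.0226 and 0.0445), Tnfaip3 passed without the trend (0.0446) and Nfkbie passed without BMDM–NG-exo replicate 3 (0.0424). For the 5 subunits the values lay between -0.02 and 0.20, and none passed.

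Side by side, the calls of the members made 4 combinations. The call rules differ, since the limit of 0.15 was set for the exosome comparisons alone. Nfkbia, Nfkbie, Tnfaip3 and Birc3 were called higher in high glucose and lower with both preparations. Tnfaip2 and Nfkb1 were called in high glucose but not with exosomes, Nfkb2 and Relb with exosomes but not in high glucose, and Rela and Rel in neither. With exosomes Nfkb1 missed only that limit, and Birc3, at 0.14 in high glucose, would not have met it there. In high glucose Relb (0.13) and Rela (0.12), which were not called, had values close to those of Nfkb1 (0.13) and Birc3. Whether members of different combinations differ from each other was not tested. Whether the response of a member to exosomes relative to PBS differs from that to glucose was not tested. The comparison of high with normal glucose and that of BMDM–NG-exo with PBS share no library. Nfkbia changed by 0.40 and -0.35 in these 2 comparisons, Nfkbie by 0.33 and -0.41, Tnfaip3 by 0.24 and -0.33, and Birc3 by 0.14 and -0.24 on the log2 scale.

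**Figure D4:**
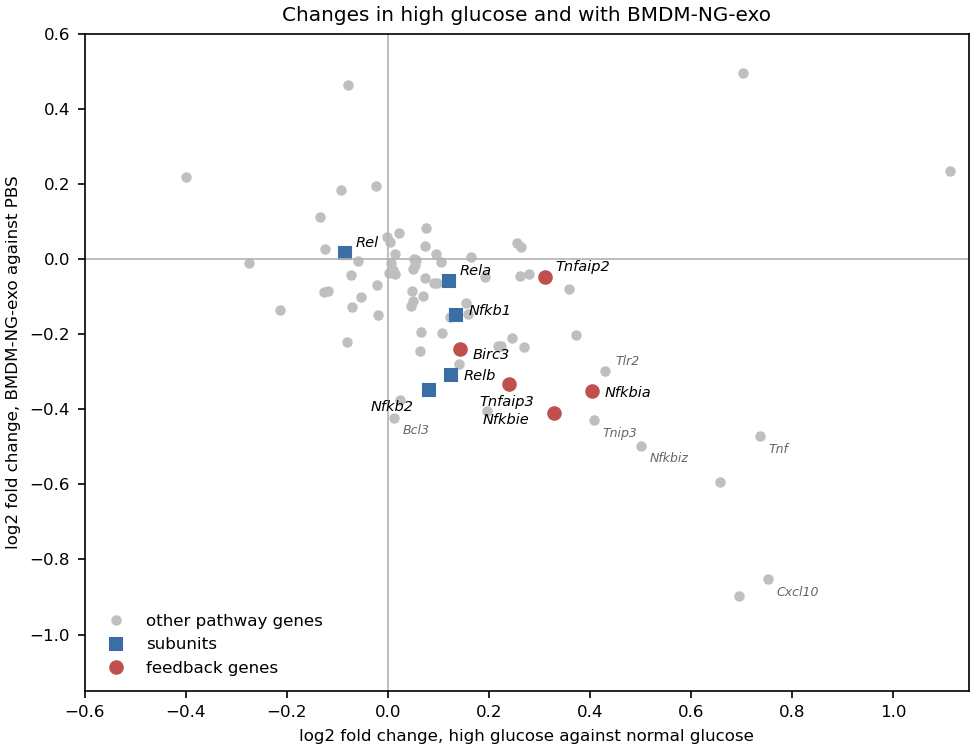
Log2 fold change in high against normal glucose (x axis) and with BMDM–NG-exo against PBS (y axis), 2 comparisons with no library in common, for the subunits (blue squares), the feedback genes (red circles) and 71 other pathway genes (grey). The other 2 pathway genes with both values, Cxcl1 and Lcn2, lie outside the axes. All 5 feedback genes and the subunits other than Rel have a glucose value above 0 and an exosome value below 0, and Tnfaip2 has the exosome value nearest to 0 among the feedback genes (-0.05).

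Per kilobase of merged exon, a scale on which genes can be compared, Tnfaip2 was the most abundant member with a mean level of 2950 normalized counts per kb over the 5 groups, above 97.3% of listed genes. Nfkbia followed with 1770 and Rela with 1264. Birc3, Nfkb1 and Nfkb2 were close together at 610, 548 and 539, then came Rel at 418, Nfkbie at 314 and Relb at 310, and Tnfaip3 was lowest at 119. The order was not the same for the longest transcript as the length: Nfkb1, whose merged exons sum to 12061 bases over many annotated transcripts, then had 1594 and ranked above Rela, and Nfkbie and Relb changed places, while Tnfaip2 and Nfkbia stayed first and second and Tnfaip3 last. The group means of the level per kb ran from 1444 to 2126 for Nfkbia and from 101 to 139 for Tnfaip3, far less than the span from Tnfaip3 to Tnfaip2. For members close in level these ranges overlapped, as for Nfkb2 (481 to 623) and Birc3 (545 to 688).

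**Figure D5:**
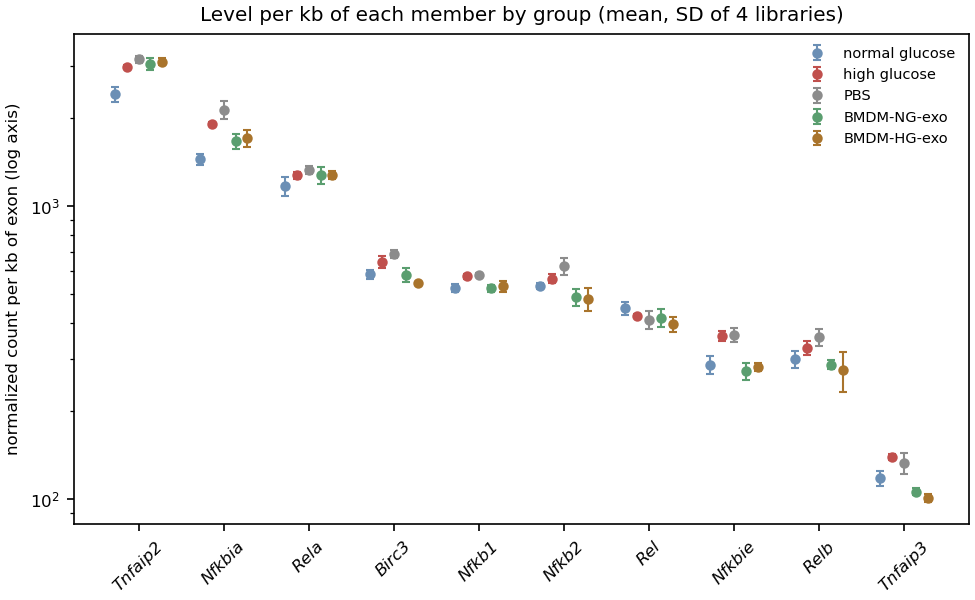
Level of each member as normalized counts per kb of merged exon (log axis), ordered by the mean over groups. Points are means and bars the SD of 4 libraries, and colours are the 5 groups. Tnfaip2 is highest at 2414 to 3167 and Tnfaip3 lowest at 101 to 139 in every group.

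Across the 5 groups PBS had the highest mean level of 8 members, the exceptions being Rel, highest in normal glucose, and Tnfaip3, highest in high glucose at 1004 ± 23.9 counts against 964 ± 78.7 with PBS, which overlap. For Nfkbia the order was PBS (3422 ± 241), high glucose (3077 ± 51.6), BMDM–HG-exo (2744 ± 191), BMDM–NG-exo (2682 ± 164) and normal glucose (2325 ± 103; SD, n = 4 each). The libraries of PBS and high glucose overlapped, as did those of both exosome groups, and the other neighbours did not. For Tnfaip2 the order was PBS, BMDM–HG-exo, BMDM–NG-exo and high glucose, each overlapping the next, and then normal glucose alone (12030 ± 704 against 14917 ± 180 in high glucose). For 9 of the 10 members every normal glucose library lay below every PBS library, which held for 10.4% of all genes. Normal glucose and PBS belong to experiments with different media, so this difference was not tested, and experiment and group cannot be told apart in it.

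Several macrophage markers also moved. Of the 7 markers, 3 were called higher in high glucose (Csf1r, Lyz2 and Adgre1) and 2 lower (Mertk and Cd68), and 4 were called lower with either exosome preparation (Fcgr1, Itgam, Csf1r and Adgre1). Their summed level ran from 620993 to 695733 normalized counts at normal glucose and from 798427 to 868348 at high glucose, and from 785780 to 831767 with PBS, 710680 to 766373 with BMDM–NG-exo and 727963 to 751990 with BMDM–HG-exo. Both differences of the sum have the direction of those of the feedback genes, and their part in the members' changes was not tested. Not every marker moved with the sum, in which abundant markers weigh most. Against PBS, Cd68 had log2 fold changes of 0.10 with BMDM–NG-exo and 0.08 with BMDM–HG-exo, and Mertk 0.09 and 0.04. Lyz2 had -0.09 with each, and none of these was called.

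Of the 5 genes most like Nfkbia over the 20 libraries, by Pearson's r of the log2 level among 11718 genes with a mean of at least 50, none belongs to the lists of NF-κB components used here. They were Irf5 and Ncf4 (r = 0.94 each), Cxcl16 (0.93), Nfam1 and Spi1 (0.92 each), where Irf5 and Spi1 encode transcription factors of myeloid cells, Ncf4 a subunit of the phagocyte NADPH oxidase and Cxcl16 a chemokine. The median over all these genes was 0.015, and the points share their groups, libraries and scaling. After subtraction of the group means the 5 values fell to between 0.50 and 0.71. Among the members, r with Nfkbia was 0.77 for Nfkbie, 0.71 for Tnfaip2, 0.67 for Nfkb1, 0.66 for Birc3, 0.63 for Rela, 0.59 for Nfkb2, 0.56 for Tnfaip3, 0.51 for Relb and -0.49 for Rel. After subtraction of the group means it was 0.37 for Nfkbie, 0.32 for Tnfaip3, 0.27 for Nfkb2 and 0.21 for Tnfaip2 and Rela, and below 0 for Birc3 (-0.11), Relb (-0.15), Nfkb1 (-0.43) and Rel (-0.65).

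The rest of the pathway was followed in 79 genes, of which 73 to 74 could be tested in a comparison. In high glucose 13 of 73 were called higher and 1 lower, where 7.74% of all genes and 15.5% of those as abundant as the members were called higher. With BMDM–HG-exo 17 of 74 were lower than with PBS and none higher, beside 3.08% and 5.95% called lower, and with BMDM–NG-exo 15 of 74 were lower and none higher, beside 2.11% and 4.07%. Their median log2 fold changes were 0.07, -0.08 and -0.06. Between the 2 preparations and against the combined controls none was called by limma.

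Among the other IκB proteins, Nfkbiz, the nuclear IκBζ that switches on secondary response genes, followed Nfkbia. It had 1637 ± 214 counts in normal glucose, 2304 ± 49.3 in high glucose, 2045 ± 121 with PBS, 1448 ± 77.7 with BMDM–NG-exo and 1514 ± 122 with BMDM–HG-exo (SD, n = 4 each). Its log2 fold changes were 0.50 in high glucose (adjusted p = 3.48e-07), -0.50 with BMDM–NG-exo (adjusted p = 1.98e-06) and -0.43 with BMDM–HG-exo (adjusted p = 1.04e-05). Bcl3, the nuclear partner of p50 and p52, was lower with BMDM–NG-exo (-0.42, adjusted p = 0.000305) and BMDM–HG-exo (-0.56, adjusted p = 1.88e-06) and had 0.01 in high glucose (adjusted p = 0.949). Of 4 genes of this list 1 was called in high glucose and 2 in each exosome comparison.

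Of 10 kinases and their subunits 1 was called in high glucose, 1 with BMDM–HG-exo and 2 with BMDM–NG-exo. Ikbkg, the regulatory subunit NEMO, rose in high glucose (0.26, adjusted p = 0.000118) and had 0.03 and 0.06 with the exosomes. Ikbke, a kinase of the interferon arm, was lower with BMDM–NG-exo and BMDM–HG-exo (-0.37 each, adjusted p = 3.47e-07 and 2.57e-07) and had 0.02 in high glucose. Map3k14, the kinase NIK that drives p100 cleavage, fell with BMDM–NG-exo (-0.22, adjusted p = 0.0152) and had -0.17 with BMDM–HG-exo (adjusted p = 0.067). Among 19 adaptors and ubiquitin ligases 2 rose in high glucose, Traf3, a ligase adaptor that keeps NIK low (0.27, adjusted p = 0.000277), and Myd88, the adaptor of most Toll-like receptors (0.16, adjusted p = 0.0212). Traf3 fell with BMDM–NG-exo (-0.23) and BMDM–HG-exo (-0.21), Myd88 and Rnf31 fell with BMDM–HG-exo (-0.20 and -0.23), and Irak2 fell with BMDM–NG-exo (-0.19).

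Of 10 other brakes on the pathway 3 rose in high glucose. Tnip3, an A20-binding inhibitor, had the largest change, 0.41 (adjusted p = 5.42e-07), and was lower with BMDM–NG-exo (-0.43) and BMDM–HG-exo (-0.42). Tnip1, which also binds A20, rose by 0.19 (adjusted p = 0.00139) and Tank by 0.16 (adjusted p = 0.0245), neither being called with exosomes. Zc3h12a, which encodes the RNase Regnase-1, was lower with BMDM–NG-exo (-0.40, adjusted p = 0.000318) and BMDM–HG-exo (-0.47, adjusted p = 1.54e-05), and N4bp1 was lower with both (-0.24 each). Of 8 receptors 3 rose in high glucose, namely Tlr2 (0.43, adjusted p = 4.16e-08), Tnfrsf1b (0.26, adjusted p = 3.72e-07) and Tlr4 (0.28, adjusted p = 6.52e-06). Tlr2 alone of the receptors was called with exosomes, at -0.30 with BMDM–NG-exo and -0.44 with BMDM–HG-exo.

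Of 23 target genes 18 were tested in the glucose comparison. Il1a, Il6, Il12b and Nos2 were not analysed here. In high glucose Tnf (0.74, adjusted p = 8.64e-06), Sod2 (0.37, adjusted p = 2.87e-05) and Cxcl10 (0.75, adjusted p = 0.00249) rose and Cd83, a surface protein of activated cells, fell by 0.28 on the log2 scale (adjusted p = 0.00254). With BMDM–HG-exo 6 of 19 fell: the chemokines Cxcl10 (-1.43, adjusted p = 0.000118) and Cxcl2 (-0.97, adjusted p = 0.0031), the cytokine Il1b (-1.13, adjusted p = 0.00162), the adhesion molecule Icam1 (-0.30, adjusted p = 0.000109), Sod2 (-0.26) and Sdc4 (-0.22). With BMDM–NG-exo 5 fell, namely Icam1 (-0.28), Tnf (-0.47), Il1b (-0.90), Sdc4 (-0.15) and Cxcl10 (-0.85). Il1b and Cxcl10 had far fewer counts than any member, at group means of 54.2 to 167 and 47.8 to 203. Tnf had 323 to 538, below the 729 to 1004 of Tnfaip3, the member with the fewest counts. These counts were not scaled by gene length. Of the NFAT genes, relatives of the Rel family, 4 of 5 were tested, and Nfatc2 alone was called, lower with BMDM–HG-exo (-0.17, adjusted p = 0.0106). With BMDM–NG-exo Nfatc2 had -0.149 (adjusted p = 0.0411) and missed only the fold limit.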

How the data were processed

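Long RNA libraries of mouse BMDM were analysed. The authors trimmed the reads (cutadapt), aligned them to GRCm38 (STAR), assigned them to genes by strand (featureCounts) and scaled each library with the median-ratio factor of DESeq2. The deposited signal is therefore a normalized count. No column lacked a sample. Whole reads were recovered from the smallest step of each column (100% of values whole, size factors recomputed equal) and served for totals and for the edgeR and DESeq2 alternatives. No 2 libraries of a group were copies (chi-square per degree of freedom 5.19 to 41.9 over 30 pairs). Genes with a median under 11 recovered reads were not analysed here.

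Normalized counts, after addition of 1 and log2 transformation, entered the two-sided moderated test of limma (3.58.1, R 4.3.3, lmFit and eBayes with trend), with Benjamini-Hochberg adjustment over all genes with a mean of at least 10 in the libraries fitted. Fold changes are on this scale. The 8 glucose libraries were fitted alone, the 12 exosome libraries as 3 groups and as BMDM–HG-exo against 8 controls, and all 20 for the difference of differences. Calls needed an adjusted p under 0.05 and, in the exosome comparisons, a log2 fold change of 0.15 or more in size. The genes named are the 10 members, up to 3 called genes of each pathway list in high glucose, and any list gene called in an exosome comparison. The members and lists were chosen with earlier results of these data known. Alternatives changed the pseudocount (0.5, 10), filter, normalization, trend, fold limit, samples in the fit and test (edgeR 4.0.16, DESeq2 1.42.0), used library numbers or dates as a block, and left out each library. The background of genes as abundant as the members was chosen after seeing the data. The fits were tested on simulated data. 1 marker gene is not reported here.

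The exosome groups share dates in the labels, but the main fits did not use this pairing, which entered only as a block in an alternative. After removal of group means, libraries of the same date correlated at a mean of 0.012 over 12 pairs (-0.018 to 0.056) and others at -0.004 over 36. Gene coordinates, lengths and symbols came from GENCODE M21, in which 14421 genes had an entry, and promoter windows from RefSeq (GRCm38.p6). Python 3.11.15 was used with matplotlib 3.10.9 for drawing and scipy 1.17.1, numpy 2.4.6 and pandas 2.3.3 for the tables.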

Additional observations from a re-analysis of the deposited data

Results flagged for a closer look

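In 2 of the 50 sets of 4 libraries (a member in a group), 1 library stood far from the other 3 by Dixon's criterion, about as many as chance gives at 1 in 20. Replicate 4 of high glucose had 2454 normalized counts of Nfkb2, where the others had 2620 to 2645, and replicate 6 of normal glucose had 782 counts of Nfkbie, where the others had 906 to 912.

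The change in high glucose differed from the change between the 2 exosome preparations for 3 members, by the test of the difference itself over 20 libraries. The difference was 0.37 on the log2 scale for Nfkbia, 0.29 for Tnfaip2 and 0.24 for Birc3.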

How the results depend on the processing

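In high against normal glucose 6 members were called under 7 of 10 other settings, and 4 with quantile normalization, 3 without the variance trend and 3 with the library numbers as a replicate block, where Nfkb1, Tnfaip3 and Birc3 had an adjusted p of 0.0975, 0.0731 and 0.117. With 1 library left out in turn 3 to 6 were called, 3 without replicate 6 of high glucose. The numbers 1 and 6 alone occur in both groups, with a same-number mean correlation of 0.007 over 2 pairs, and -0.001 over 14 others. For the exosome libraries, same-date pairs had a mean of 0.012 over 12 pairs, and others -0.004 over 36. Their ranges overlap (-0.018 to 0.056 and -0.089 to 0.041), so these correlations do not settle whether libraries of a number or date belong together. With the block, the genes called in the direct comparison of the preparations rose from 2 to 22. In the glucose comparison and for the difference of differences the number of genes called fell. Against the combined controls 0 members were called, but 1 by DESeq2 (Birc3) and 4 in 1 fit of all 20 libraries (Birc3, Nfkb2, Tnfaip3 and Relb), and 0 to 1 with a library left out. Between the 2 preparations 0 were called under every setting, though DESeq2 gave no adjusted p for Tnfaip3 there. Against PBS 6 were called with BMDM–HG-exo (5 to 7, 5 without the trend, and 6 with each library left out) and 6 with BMDM–NG-exo (6 to 7, 3 without the trend (Nfkb2, Relb and Nfkbia lost), and 5 to 7 with a library left out). Without the fold limit the seventh was Nfkb1. For the difference of differences 3 were called (2 to 5, 2 with quantile normalization or with the replicate block, where Birc3 had an adjusted p of 0.0511, 5 with DESeq2, and 2 to 4 with a library left out). The replicate block changed no other call of a member. No called member changed direction under any setting, and the cause of these changes of call was not tested.

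Over all genes the number called fell from 1914 to 654 without the trend and to 788 with the block in the glucose comparison, from 698 to 295 and from 432 to 95 without the trend for BMDM–HG-exo and BMDM–NG-exo against PBS, and from 685 to 324 without the trend and 296 with the block for the difference of differences. For the combined controls it ran from 1 (no trend) to 322 (1 fit of all libraries), against 29, and between the preparations from 0 to 22 (DESeq2 and the block), against 2. With 4 libraries per group small differences may go unseen.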
